A study of Mus musculus with 23 samples.

Results

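*Fgf21*, *Klb* and the FGF receptor genes *Fgfr1*, *Fgfr2*, *Fgfr3* and *Fgfr4* were followed through recovery of the mouse pancreas from caerulein pancreatitis. These 6 genes are the rows with those names among the 18512 gene symbols of the count files. RNA came from the head of the pancreas of male and female C57BL/6 mice, 6 to 8 weeks old. Caerulein, a cholecystokinin analogue that overstimulates acinar cells, was injected into the peritoneum at 50 µg/kg, as 8 hourly injections on each of 2 consecutive days. The 3 groups were uninjured mice (baseline, 4 females and 4 males), mice 7 days after injury (day 7, 4 females and 4 males) and mice 14 days after injury (day 14, 3 females and 4 males), and each mouse gave 1 library. The study asked whether a pancreas that looks recovered under the microscope has returned to its baseline transcriptome, and the values below give that comparison for the FGF21 system.

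FGF21 is an endocrine member of the fibroblast growth factor family. Most FGFs are held near their source by heparan sulfate, but FGF21 binds it weakly and can leave the tissue. It signals through an FGF receptor, a tyrosine kinase, only where the single-pass membrane protein beta-klotho (*Klb*) is also present, and *Fgfr1* is the receptor most often linked to it. Acinar cells of the exocrine pancreas transcribe *Fgf21* at a high level and respond to its protein by secreting digestive enzymes. The gene is a known target of ATF4, a transcription factor of the integrated stress response, and of the nuclear receptor PPAR alpha.

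*Fgf21* lies on chromosome 7 at 45613890-45615490, on the minus strand of GRCm38 (the mm10 assembly). *Fgfr2* is on the same chromosome and strand at 130162451-130266808. *Klb* (65348411-65386957) and *Fgfr3* (33721724-33737068) are on the plus strand of chromosome 5, *Fgfr1* is at 25518759-25575718 on the plus strand of chromosome 8, and *Fgfr4* is at 55152818-55168759 on the plus strand of chromosome 13. Promoter sequences of RefSeq (GRCm38.p6), reaching from 250 bases before the transcription start to 50 bases after it, were matched for 5 of the 6 genes: *Fgf21*, *Klb*, *Fgfr2*, *Fgfr3* with 2 starts, and *Fgfr4*. Each was searched on both strands for TGATGCAA (the composite site of C/EBP and ATF factors, known as an amino acid response element), TGACGTCA (the cyclic AMP response element), CACGTG (an E-box) and TATAAA (the TATA box). Because *Fgf21* was the gene that changed most, the stretches of its promoter that hold a match are shown, 5′ to 3′ on the minus strand, with the matched letters in capitals.

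Composite site, reverse complement, from 139 bases before the start, chr7:45615611-45615640: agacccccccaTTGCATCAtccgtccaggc
E-box, from 50 bases before the start, chr7:45615524-45615551: agtggggagggCACGTGggcgggcctgt
TATA box, from 28 bases before the start, chr7:45615502-45615529: gcctgtctgggTATAAAttctggtattt

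The 3 matches did not overlap. Of 32851 mouse promoters of this length, 0.895% held the composite site, 7.15% the E-box and 13.6% the TATA box. The cyclic AMP response element, held by 1.79% of promoters, was in none of the windows of these genes. *Fgfr2* held an E-box 28 bases after its start, and the windows of *Klb*, *Fgfr3* and *Fgfr4* held none of the 4 motifs. A match describes the letters in the window and says nothing about binding.

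Library totals ran from 7059890 to 9567446 counts. The marker genes of each cell type were chosen with earlier results of these data known. The 12 acinar markers listed for the tissue check, such as *Pnlip* and *Cpa1*, were expressed in every mouse. Their sum ran from 330701 to 496819 counts per 1000000 (CPM) in the baseline mice. The range was 194431 to 293593 CPM for the day 7 mice and 298291 to 361164 CPM for those of day 14. By the rule for changed genes given below, 7 of the 12 were lower at day 7, while 6 of 7 fibroblast, 6 of 7 macrophage, 4 of 8 islet and 3 of 7 duct markers were higher. At day 14, 0 acinar markers (edgeR and DESeq2) and 2 fibroblast markers were called, as was the hepatocyte marker *Alb*, the serum albumin gene (log2 fold change 5.35, adjusted p = 0.0417, edgeR). All 12 acinar markers had a negative log2 fold change at day 14. Without the fold threshold 7 of the 12 passed the adjusted p in edgeR, beside 1.57% of all genes tested. An unadjusted p under 0.05 was reached by 10 of the 12 in edgeR, beside 13.3%. Hepatocyte markers summed to 593 CPM in day 14 female 19 and 64.0 CPM in day 14 male 21, and to at most 22.7 CPM in every other mouse. Adipocyte markers summed to more than 80 CPM in 5 mice (baseline male 5, day 7 female 10, males 14 and 15, day 14 male 21) and to at most 71.5 CPM in the others. A change of a transcript in this tissue can come from fewer cells of a type or from less RNA per cell, which bulk libraries cannot tell apart.

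At baseline, *Fgf21* and its co-receptor had the highest transcript levels of the 6 genes. Per kilobase of the principal transcript, *Fgf21* had 24.5 CPM ± 7.65 (SD, n = 8), *Klb* had 11.3 ± 1.12 and *Fgfr1* 5.29 ± 0.720. *Fgfr3* had 2.09 ± 0.243, *Fgfr2* 1.96 ± 0.387 and *Fgfr4* 0.335 ± 0.141. The ranges of neighbours in this order did not overlap, except those of *Fgfr3* and *Fgfr2*, of which *Fgfr3* was the higher in 4 of 8 mice. At day 7 *Fgf21* and *Klb* were no longer apart: *Fgf21* had 10.4 ± 5.74 CPM per kilobase against 9.65 ± 1.004 for *Klb*, and it was the higher in 2 of 8 mice. At day 14 *Fgf21* had 15.6 ± 5.72 (n = 7) and *Klb* had 10.5 ± 0.908, with *Fgf21* higher in 6 of 7 mice. With the length of all annotated exons in place of the principal transcript, the 6 means kept this order in every group, but the ranges of *Fgfr3* and *Fgfr2* no longer overlapped in any, and those of *Fgfr2* and *Fgfr4* overlapped at baseline and day 14. On that scale *Fgf21* was above *Klb* in 6 of 8 day 7 mice. The *Fgfr2* record behind its exon length reaches to 133123350, past the gene end of 130266808, and may hold exons outside the gene. The level of *Fgfr2* on that scale may thus be too low.

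**Figure D1:**
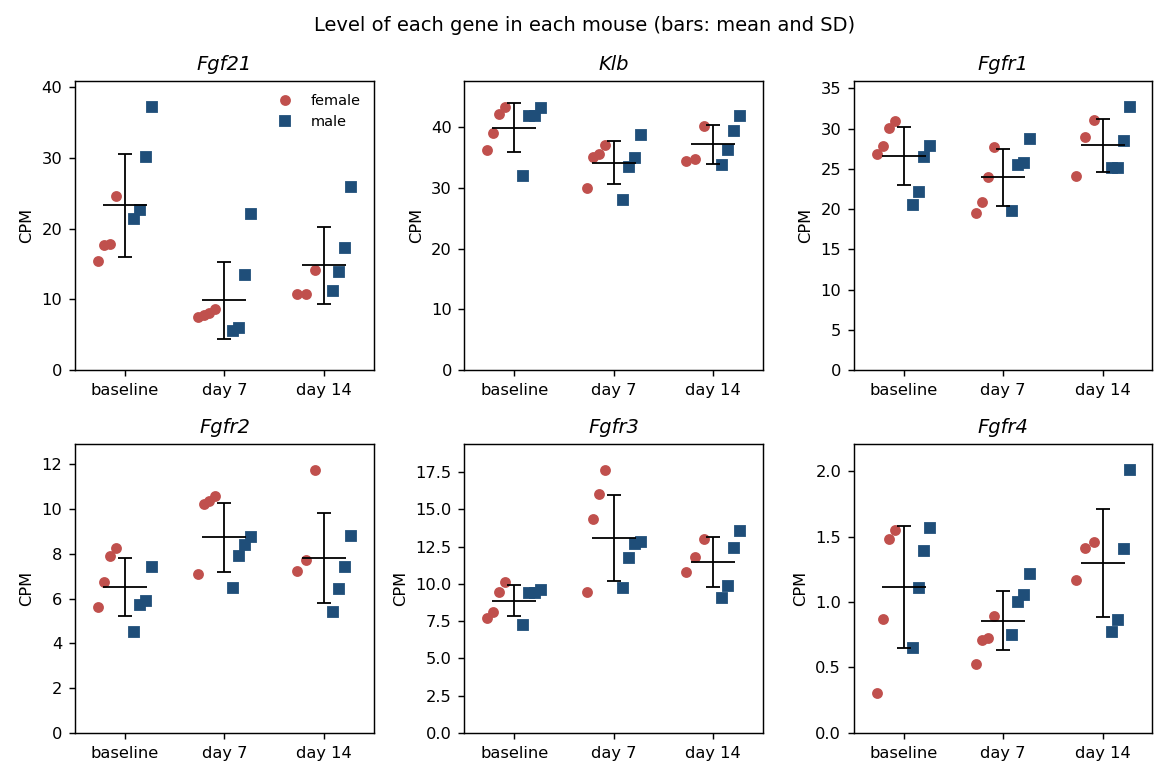
Each panel plots 1 gene, with CPM on the vertical axis and the 3 groups on the horizontal axis. Points are mice (circles female, squares male) and bars are the mean and SD; *Fgf21* falls from a mean of 23.3 to 9.89 CPM between baseline and day 7, with male 16 alone inside the baseline range, while *Fgfr3* rises from 8.87 to 13.1 CPM.

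At day 7, *Fgf21* fell, and it was the only one of the 6 genes past both thresholds. It had 15.4 CPM in the lowest baseline mouse, 21.98 at the median and 37.2 in the highest. At day 7 the lowest mouse had 5.61, the median was 7.99 and the highest mouse had 22.02. Of the 8 day 7 mice, 7 lay below every baseline mouse, and male 16 lay near the baseline median. The log2 fold change was -1.24 (standard error 0.24, adjusted p = 0.00107, edgeR quasi-likelihood test). A gene was called a differentially expressed gene (DEG) when its adjusted p was at most 0.05 and its fold change at least 1.5. By this rule 1 of the 6 genes was a DEG at day 7, beside 5.13% of the 12195 genes tested. Genes called lower were 1.31% of those tested and genes called higher 3.82%. The call held when any 1 of the 23 mice was left out, with log2 fold changes from -1.47 (without day 7 male 16) to -1.13. It also held without the 2 mice with hepatocyte transcripts (-1.25, adjusted p = 0.00194) and without the 5 mice richest in adipocyte transcripts (-1.19, adjusted p = 0.0115). The day 7 mice were also the ones with the lowest acinar marker sums, and the ratio of *Fgf21* to acinar transcripts is given further on.

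At day 14, *Fgf21* lay between both other groups. It had 10.7 CPM in the lowest mouse, 13.9 at the median and 25.95 in the highest. Of the 7 mice, 5 were below every baseline mouse, and male 24 was above the baseline median. Against baseline the log2 fold change was -0.68 (standard error 0.24, unadjusted p = 0.0100, adjusted p = 0.181, edgeR). Against day 7 it was 0.56 (standard error 0.25, adjusted p = 0.307), and all 7 mice were above the day 7 median. Day 14 was thus separated from neither baseline nor day 7 at the threshold. At this day 0 of the 6 genes were DEGs (edgeR and DESeq2), beside 0.787% of the genes tested, and 3 of the 6 had an unadjusted p under 0.05 in edgeR, beside 13.3% of the genes. Between day 14 and day 7, 0 of the 6 were DEGs (edgeR and DESeq2), beside 0.377%, and 3 had an unadjusted p under 0.05 in edgeR, beside 14.1%.

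*Klb*, the obligate co-receptor of FGF21, was lower at day 7 by a small amount. It had 32.1 CPM in the lowest baseline mouse, 41.8 at the median and 43.3 in the highest, and at day 7 the corresponding values were 28.1, 35.1 and 38.8. The ranges overlapped, with 2 of 8 day 7 mice below every baseline mouse and none above the baseline median. The log2 fold change was -0.23 (standard error 0.073, adjusted p = 0.0298, edgeR), less than the 1.5-fold needed for a DEG. It was sensitive to scaling: with total counts *Klb* was higher at day 7 (0.23, adjusted p = 0.000973), although all genes then moved up by a median of 0.48. Left out 1 at a time, the mice gave adjusted p-values between 0.00712 and 0.0701. At day 14 the lowest, median and highest values were 33.8, 36.2 and 41.8 CPM, inside the baseline range, with a log2 fold change of -0.10 (adjusted p = 0.635).

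*Fgfr3* and *Fgfr2* had higher transcript levels at day 7, both by less than 1.5-fold. *Fgfr3* had 7.27 CPM in the lowest baseline mouse, 9.37 at the median and 10.1 in the highest, against 9.44, 12.7 and 17.6 at day 7. All 8 day 7 mice were above the baseline median and 6 were above every baseline mouse. The log2 fold change was 0.55 (standard error 0.12, adjusted p = 0.00176, edgeR). Both mice within the baseline range, female 10 and male 15, were among the 5 mice richest in adipocyte transcripts. Male 14, also among those 5, had 11.7 CPM, above every baseline mouse. A link between *Fgfr3* and adipocyte content was not tested. Leaving out those 5 mice was decided after the data had been seen. It removes the day 7 mice with the lowest *Fgfr3*, which raises the difference. Without those 5 mice *Fgfr3* passed the fold threshold (0.72, adjusted p = 3.95e-05), as it did without female 10 alone (0.61, adjusted p = 0.000294) or male 15 alone (0.59, adjusted p = 0.00127). At day 14 its values ran from 9.03 to 13.6 CPM with a median of 11.8, 5 of 7 mice were above every baseline mouse, and the log2 fold change was 0.38 (standard error 0.12, adjusted p = 0.134). Without the 5 mice rich in adipocyte transcripts this adjusted p was 0.0221, at a log2 fold change of 0.43.

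*Fgfr2*, the receptor whose splice forms serve epithelium and mesenchyme, had 4.53 CPM in the lowest baseline mouse, 6.34 at the median and 8.27 in the highest. At day 7 the values were 6.50, 8.58 and 10.6. All 8 day 7 mice were above the baseline median, and 5 were above every baseline mouse. Its log2 fold change was 0.42 (standard error 0.13, adjusted p = 0.0222, edgeR), and leaving out single mice gave adjusted p-values of 0.00867 to 0.0585. At day 14 it ranged from 5.41 to 11.7 CPM with a median of 7.42, and the log2 fold change was 0.28 (adjusted p = 0.375). The counts are per gene, so the splice forms were not measured.

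*Fgfr1*, the receptor most often paired with beta-klotho, overlapped between all groups. Its baseline values ran from 20.5 to 31.0 CPM with a median of 27.3, those of day 7 from 19.5 to 28.7 with a median of 24.7, and those of day 14 from 24.1 to 32.6 with a median of 28.5. The log2 fold change was -0.15 at day 7 (standard error 0.094, adjusted p = 0.279) and 0.07 at day 14 (standard error 0.097, adjusted p = 0.834). An antisense gene, *Gm16159*, overlaps *Fgfr1* and had at most 1 count in any mouse. *Fgfr4*, the main FGF receptor of liver, had only 2 to 16 counts per mouse. Baseline mice had 0.307 to 1.57 CPM, day 7 mice 0.525 to 1.21 CPM and day 14 mice 0.773 to 2.01 CPM, and its log2 fold changes of -0.39 (standard error 0.28) and 0.20 (standard error 0.28) were not detectable as differences at this depth (adjusted p = 0.342 and 0.845, edgeR). Without the fold threshold, 4 of the 6 genes passed at day 7 in edgeR, beside 18.6% of the genes tested. *Fgf21* and *Klb* were lower, as were 9.7% of the genes, and *Fgfr2* and *Fgfr3* were higher, as were 8.86%. At day 14, 0 of the 6 passed in edgeR, beside 1.57%. The 8 baseline mice serve as controls in each of these comparisons.

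**Figure D2:**
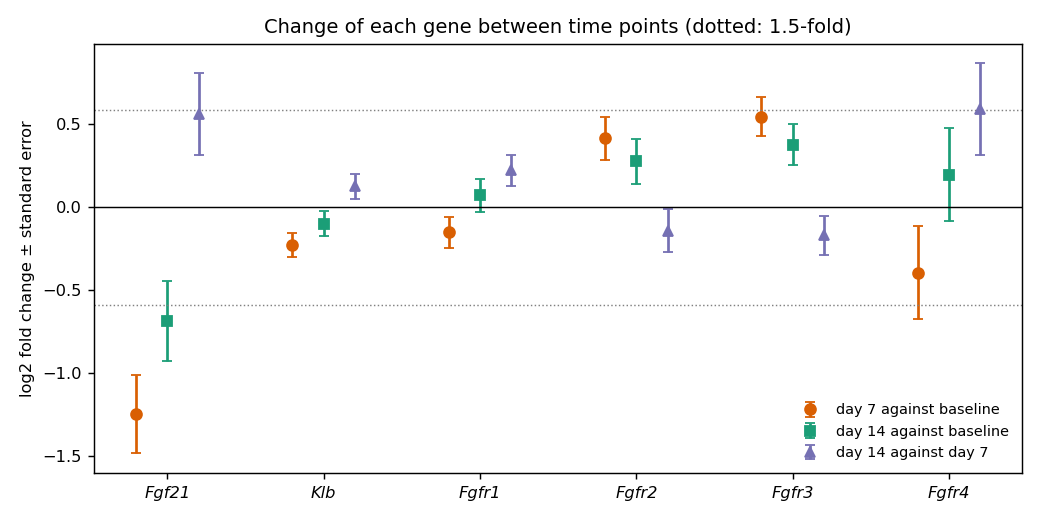
Points are edgeR log2 fold changes of the 6 genes for the 3 comparisons of time points, bars are standard errors, and dotted lines mark 1.5-fold. *Fgf21* at day 7 (-1.24) lies beyond the dotted line and was the DEG; *Fgfr3* (0.55) and *Fgfr2* (0.42) at day 7 lie above 0 and below the line.

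The makeup of the receptors was described by the share of each in the summed CPM per kilobase of the 4 receptor genes. *Fgfr1* made up 54.6% ± 4.34 (SD, n = 8) at baseline, 44.6% ± 4.75 (n = 8) at day 7 and 50.6% ± 2.98 (n = 7) at day 14. *Fgfr3* made up 21.7% ± 2.51, 28.4% ± 2.998 and 24.7% ± 2.90. *Fgfr2* made up 20.3% ± 3.70, 24.6% ± 3.60 and 21.2% ± 3.55, and *Fgfr4* 3.44% ± 1.39, 2.42% ± 0.613 and 3.49% ± 0.775. The lowest day 7 mouse for *Fgfr3*, at 25.5%, was below the highest baseline mouse, at 26.2%. These shares do not depend on how the libraries were scaled, but they do depend on the transcript lengths, and a rise in 1 share lowers the others.

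**Figure D3:**
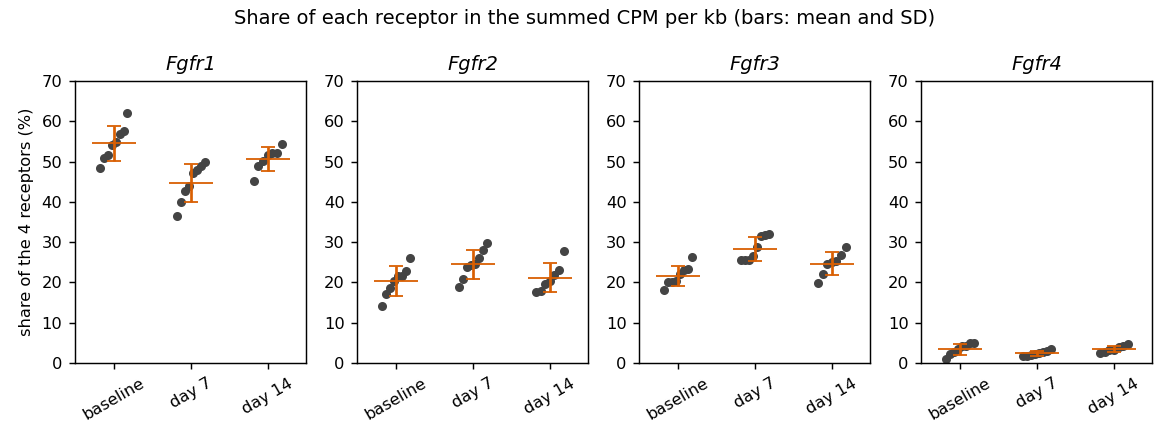
Each panel gives 1 receptor gene, with its percent of the summed CPM per kilobase of all 4 on the vertical axis. Points are mice and bars the mean and SD of each group; the mean of *Fgfr1* goes from 54.6% to 44.6% between baseline and day 7 and that of *Fgfr3* from 21.7% to 28.4%.

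The most abundant transcripts of this tissue encode digestive enzymes, so the scaling of the libraries decides where the zero of a fold change lies. TMM factors, which put most genes near no change, had medians of 0.844 at baseline, 1.16 at day 7 and 1.002 at day 14. With total counts in their place, the median of all genes at day 7 moved from 0.02 to 0.48, and 99.4% of the DEGs were higher at day 7, against 74.4% with TMM. *Fgf21* remained a DEG (-0.80, adjusted p = 0.0039), *Fgfr2* (0.86) and *Fgfr3* (0.98) became DEGs, and *Klb* (0.23), *Fgfr1* (0.30) and *Fgfr4* (0.04) changed sign. Scaling shifts all genes by nearly the same amount. Values measured from the median of all genes were therefore alike under the 4 scalings by construction, which is no check of the changes. *Fgf21* lay at -1.27 under each, *Klb* at -0.25, *Fgfr3* at 0.50 to 0.52 and *Fgfr2* at 0.38 to 0.39.

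**Figure D4:**
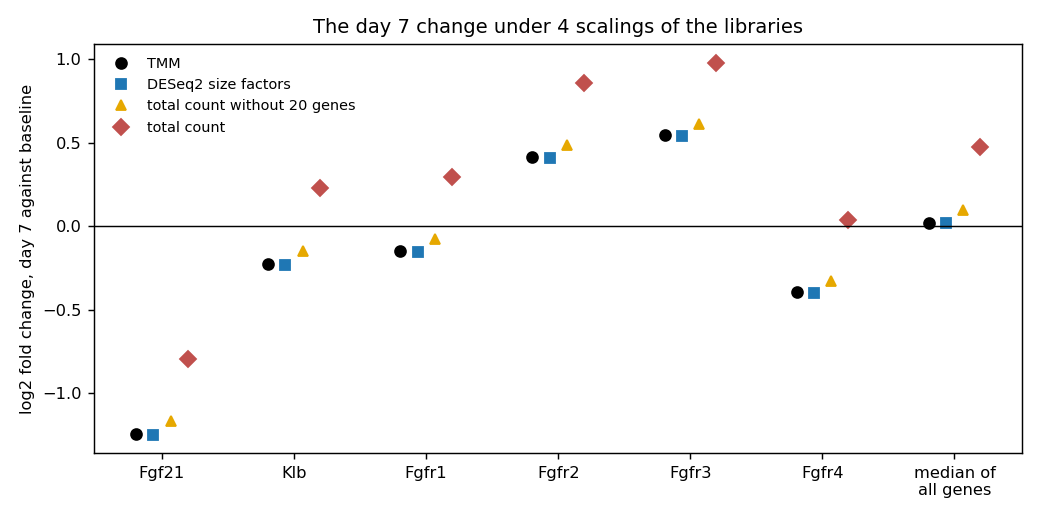
The vertical axis gives the log2 fold change of each gene at day 7 against baseline under 4 scalings of the libraries, and the last column the median over all genes tested. Total counts (diamonds) lift every gene and the median together, from 0.02 to 0.48 for the median. A shift shared by all genes keeps their order, so *Fgf21* is lowest under each scaling.

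Ratios of counts within a mouse do not depend on any scaling. This set of 16 ratios was chosen after the values had been seen, and each was tested by an exact two-sided permutation test over mice, with Benjamini-Hochberg adjustment over the 16. Unlike the edgeR tests, these were not adjusted for sex, and day 14 had 3 females and 4 males. The log2 ratio of *Fgf21* to *Klb*, the ligand against its co-receptor, was -0.83 ± 0.45 (SD, n = 8) at baseline and -1.93 ± 0.65 (n = 8) at day 7, a difference of -1.10 (exact permutation p = 0.00280, adjusted p = 0.00895), with 6 of 8 day 7 mice lower than any baseline mouse. At day 14 the difference was -0.57 (exact permutation p = 0.0314, adjusted p = 0.0558). It passed the threshold without day 14 male 24 (-0.70, adjusted p = 0.0173, exact permutation), baseline female 3 (-0.66, adjusted p = 0.0315) or baseline female 1 (-0.63, adjusted p = 0.0435). In 12 of the 15 omissions of 1 mouse it missed the threshold, with adjusted p up to 0.102 (exact permutation). The ratio of *Fgfr3* to *Klb* was higher at day 7 by 0.76 in log2 (exact permutation p = 0.000155, the smallest these splits allow, adjusted p = 0.00124). Every day 7 mouse exceeded the highest baseline mouse, although the ranges of each gene alone overlapped. The ratio sets a gene already seen to be higher against a gene already seen to be lower. How often ratios of other gene pairs separate in this way was not tested. At day 14 the ratio of *Fgfr3* to *Klb* was higher by 0.47 (exact permutation p = 0.00435, adjusted p = 0.0103), and 4 of 7 mice exceeded the highest baseline mouse. *Fgfr2* to *Klb* rose at day 7 by 0.65 (exact permutation p = 0.00202, adjusted p = 0.00895), with 7 of 8 mice higher than any baseline mouse, and *Fgfr1* to *Klb* differed by 0.08 (exact permutation p = 0.532, adjusted p = 0.532). At day 14 *Fgfr2* to *Klb* differed by 0.35 (exact permutation, adjusted p = 0.0981), which passed without day 14 male 24 (0.45, adjusted p = 0.0290), and *Fgfr1* to *Klb* by 0.17 (exact permutation, adjusted p = 0.190). *Fgfr2* to *Klb* missed the threshold in 14 of the 15 omissions of 1 mouse, with adjusted p up to 0.203 (exact permutation).

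Against transcripts of acinar cells, *Fgf21* depended on which transcripts were taken. Its log2 ratio to the sum of 9 enzyme genes differed by -0.58 between day 7 and baseline, which missed the threshold (exact permutation p = 0.0407, adjusted p = 0.0651). Of the 8 mice, 5 were lower and 1 was higher than any baseline mouse. Without day 7 male 16 the difference was -0.74 (adjusted p = 0.0146, exact permutation), and without day 7 male 15 it was -0.67 (adjusted p = 0.0497, exact permutation). These were the day 7 mice with the highest *Fgf21*. The threshold was missed in 14 of the 16 omissions of 1 mouse, with differences up to -0.49 and adjusted p up to 0.118 (exact permutation). To the sum of the acinar transcription factor genes *Rbpjl*, *Ptf1a* and *Bhlha15*, the difference was -1.01 (exact permutation p = 0.00451, adjusted p = 0.0103), with 6 of 8 mice lower than any baseline mouse. *Rbpjl* (-0.36, adjusted p = 0.0049, edgeR) and *Bhlha15* (-0.29, adjusted p = 0.0094) were themselves lower at day 7, and *Ptf1a* had -0.18 (adjusted p = 0.374). Their sum is thus not a fixed measure of acinar content. The ratio of *Klb* to the transcription factor genes had a difference of 0.09 at day 7 (exact permutation p = 0.212, adjusted p = 0.227). The ratio of *Klb* to the enzyme genes was higher at day 7 by 0.52 (exact permutation p = 0.000155, adjusted p = 0.00124). All 8 day 7 mice were higher than any baseline mouse. At day 14 this ratio was higher by 0.26 (exact permutation p = 0.00233, adjusted p = 0.00895). *Klb* itself had log2 fold changes of -0.23 and -0.10 (edgeR, TMM). All 12 acinar markers, which include these enzyme genes, had negative log2 fold changes at both days. These 2 ratios thus do not give a rise of *Klb* itself. The other day 14 ratios to acinar transcripts missed the threshold. *Fgf21* differed by -0.31 against the enzyme genes (exact permutation, adjusted p = 0.197) and by -0.40 against the transcription factor genes (exact permutation, adjusted p = 0.162), and *Klb* by 0.17 against the latter (exact permutation, adjusted p = 0.0558). Leaving out day 14 male 24 brought *Fgf21* against the transcription factor genes past it (-0.55, adjusted p = 0.0373, exact permutation). Leaving out baseline female 1, baseline male 7, baseline male 8 or day 14 male 22 did so for *Klb* (0.18 to 0.19, adjusted p = 0.0306 to 0.0455, exact permutation). Of the 15 omissions of 1 mouse, 14 missed the threshold for *Fgf21* and 11 for *Klb*. Their adjusted p reached 0.276 and 0.105 (exact permutation).

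*Fgf21* had a lower mean at day 7 in both sexes. Baseline females had 17.8, 17.7, 15.4 and 24.6 CPM and baseline males 21.3, 37.2, 30.2 and 22.6. Day 7 females had 7.498, 7.87, 8.69 and 8.11 CPM, a narrow range below every baseline mouse, and day 7 males had 5.91, 5.61, 13.4 and 22.02. Day 14 females had 10.8, 14.1 and 10.7 CPM and day 14 males 13.9, 17.2, 11.2 and 25.95. In a fit with a coefficient for each sex at each time point, the day 7 log2 fold change was -1.24 (standard error 0.36, adjusted p = 0.0573, edgeR) in females and -1.26 (standard error 0.35, adjusted p = 0.0313) in males. The female contrast missed the threshold and the male one passed it, with an interaction of -0.01 (standard error 0.52, adjusted p = 0.99988). The interaction had an adjusted p of at least 0.924 for every one of the 6 genes at both days in edgeR, and 0 passed in DESeq2. At an unadjusted p under 0.05, 0 of the 6 passed in edgeR, beside 5.45% of genes at day 7 and 3.66% at day 14. Of all 12933 genes in that fit, 0.00773% had an interaction at day 7 and 0% at day 14. Over all time points, males had more *Fgf21* (log2 difference 0.54, standard error 0.20, unadjusted p = 0.0133) and less *Fgfr2* (-0.29, standard error 0.11, unadjusted p = 0.00953), and neither passed adjustment (adjusted p = 0.360 and 0.313, edgeR). By sex, 0 of the 6 genes were DEGs (edgeR and DESeq2), beside 0.23% of the genes tested.

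The other genes of the pathway were taken from 8 lists, chosen with earlier results of these data known. Of 18 genes for secreted FGFs, 3 had enough counts to be tested. Beside *Fgf21* these were *Fgf1*, a ligand of all FGF receptors, and *Fgf10*, a mesenchymal ligand of the epithelial *Fgfr2* form. *Fgf1* had a mean of 5.06 CPM at baseline and 6.52 at day 7 (log2 fold change 0.42, adjusted p = 0.271), and *Fgf10* had 0.814 and 1.06 (0.35, adjusted p = 0.460), so that *Fgf21* was the only DEG of the 3 at day 7. With total counts both of the others were called higher. Among genes for intracellular FGF homologous factors, which do not act through the receptors, *Fgf12* rose at both days, from a mean of 0.683 CPM to 1.55 (1.15, adjusted p = 0.00369) and 1.45 (1.09, adjusted p = 0.0424) in edgeR. In DESeq2 it was called at day 7 and not at day 14. It had only 3 to 22 counts per mouse. *Fgf14* was higher at day 14 than at day 7 (3.68 against 2.26 CPM, 0.71, adjusted p = 0.0355, edgeR), a call that DESeq2 did not make. *Fgfrl1*, which encodes a receptor without the kinase domain, had a log2 fold change of -0.02 at day 7 (adjusted p = 0.952).

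Among genes that report or restrain FGF signalling, DEGs were found in both directions. Of 12 such genes tested, 2 were DEGs upward and 1 downward at day 7, beside 5.13% of all genes. Their log2 fold change was positive for 10 of the 12 at day 7 and 11 of the 12 at day 14. At day 7 their median was 0.39 on the log2 scale, beside 0.02 over all genes, and at day 14 it was 0.19, beside 0.006. An unadjusted p under 0.05 was reached at day 7 by 7 of the 12 in edgeR, beside 32.2% of all genes. The adjusted p alone was passed by 4, beside 18.6%. At day 14, 0 of the 12 were DEGs in edgeR and DESeq2, the smallest adjusted p in edgeR being 0.0798, and 2 had an unadjusted p under 0.05, beside 13.3% of all genes. With total counts 8 of the 12 were called higher at day 7 and 0 lower. *Spred2*, an inhibitor of the Ras and ERK pathway, had a mean of 2.47 CPM at baseline and 4.07 at day 7 (0.71, adjusted p = 0.0348), and *Etv5*, a transcription factor induced by FGF signals, had 3.02 and 4.65 (0.61, adjusted p = 0.0431). *Spry4*, a feedback inhibitor of receptor tyrosine kinases, had 2.16 and 1.27 (-0.74, adjusted p = 0.0230) and was not called with total counts. *Spred1* had 17.8 and 24.5 CPM (0.46, adjusted p = 0.0033), under the fold threshold. These genes also answer to other growth factors and are expressed in other cells of the tissue, whose markers are given above, and the part of those cells in these values was not tested.

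Among 9 adaptor genes of the receptors, 0 were DEGs at day 7 in edgeR and DESeq2, while 5 had an unadjusted p under 0.05 (beside 32.2% of all genes) and 4 passed the adjusted p alone (beside 18.6%) in edgeR. Of the 9, 8 had a negative log2 fold change. *Ptpn11*, a phosphatase that links receptors to Ras, had the smallest adjusted p of them (-0.24, adjusted p = 0.00118), and *Sos2* and *Sos1*, exchange factors of Ras, had -0.27 (adjusted p = 0.00909) and -0.18 (adjusted p = 0.0327). The other, named after its value was seen, was *Plcg1* (-0.35, adjusted p = 0.0128), which encodes phospholipase C gamma. With total counts all 9 were positive and 1 was called higher. Of 9 genes for heparan sulfate proteoglycans and FGF carriers, 0 were DEGs at day 7 in edgeR and DESeq2, and 4 had an unadjusted p under 0.05 in edgeR, beside 32.2% of all genes. With total counts 8 of the 9 were positive and 3 were called higher. The adjusted p alone was passed by 3 of the 9, beside 18.6% of all genes, namely *Hspg2* (perlecan) with -0.38 (adjusted p = 0.00825) and, named after their values were seen, *Gpc4* with -0.46 (adjusted p = 0.00891) and *Sdc2* with 0.45 (adjusted p = 0.00302). *Sdc4*, the syndecan gene with most counts, was at 0.01 (adjusted p = 0.920).

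Among genes known to regulate *Fgf21*, none was a DEG at day 7 or day 14. Of 15 genes for transcription factors, stress kinases and the protease of FGF21, 0 were called at either day in edgeR and DESeq2, and 7 had an unadjusted p under 0.05 at day 7 in edgeR, beside 32.2% of all genes. The median of the 15 at day 7 was -0.07 on the log2 scale. By sex over all time points, 1 of the 15 was a DEG, higher in males (adjusted p = 0.0188, edgeR), beside 0.23% of the genes tested. The adjusted p alone was passed at day 7 by 3, beside 18.6% of all genes, and they were named after their values were seen: *Eif2ak4*, the amino acid sensor GCN2 (-0.32, adjusted p = 0.0107), *Ern1*, a sensor of unfolded protein (-0.25, adjusted p = 0.0290), and *Rxra*, the partner of PPAR alpha (-0.22, adjusted p = 0.0332). With total counts all 15 were positive at day 7 and 6 were called higher. *Atf4* had a mean of 119 CPM at baseline and 108 at day 7 (-0.14, adjusted p = 0.220), *Xbp1* 460 and 424 (-0.12, adjusted p = 0.323) and *Eif2ak3*, the kinase PERK, 182 and 162 (-0.17, adjusted p = 0.139). *Ppara* had 14.8 and 14.1 (-0.07, adjusted p = 0.683). ATF4 and XBP1 are controlled in good part after transcription, which these counts do not measure.

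**Figure D5:**
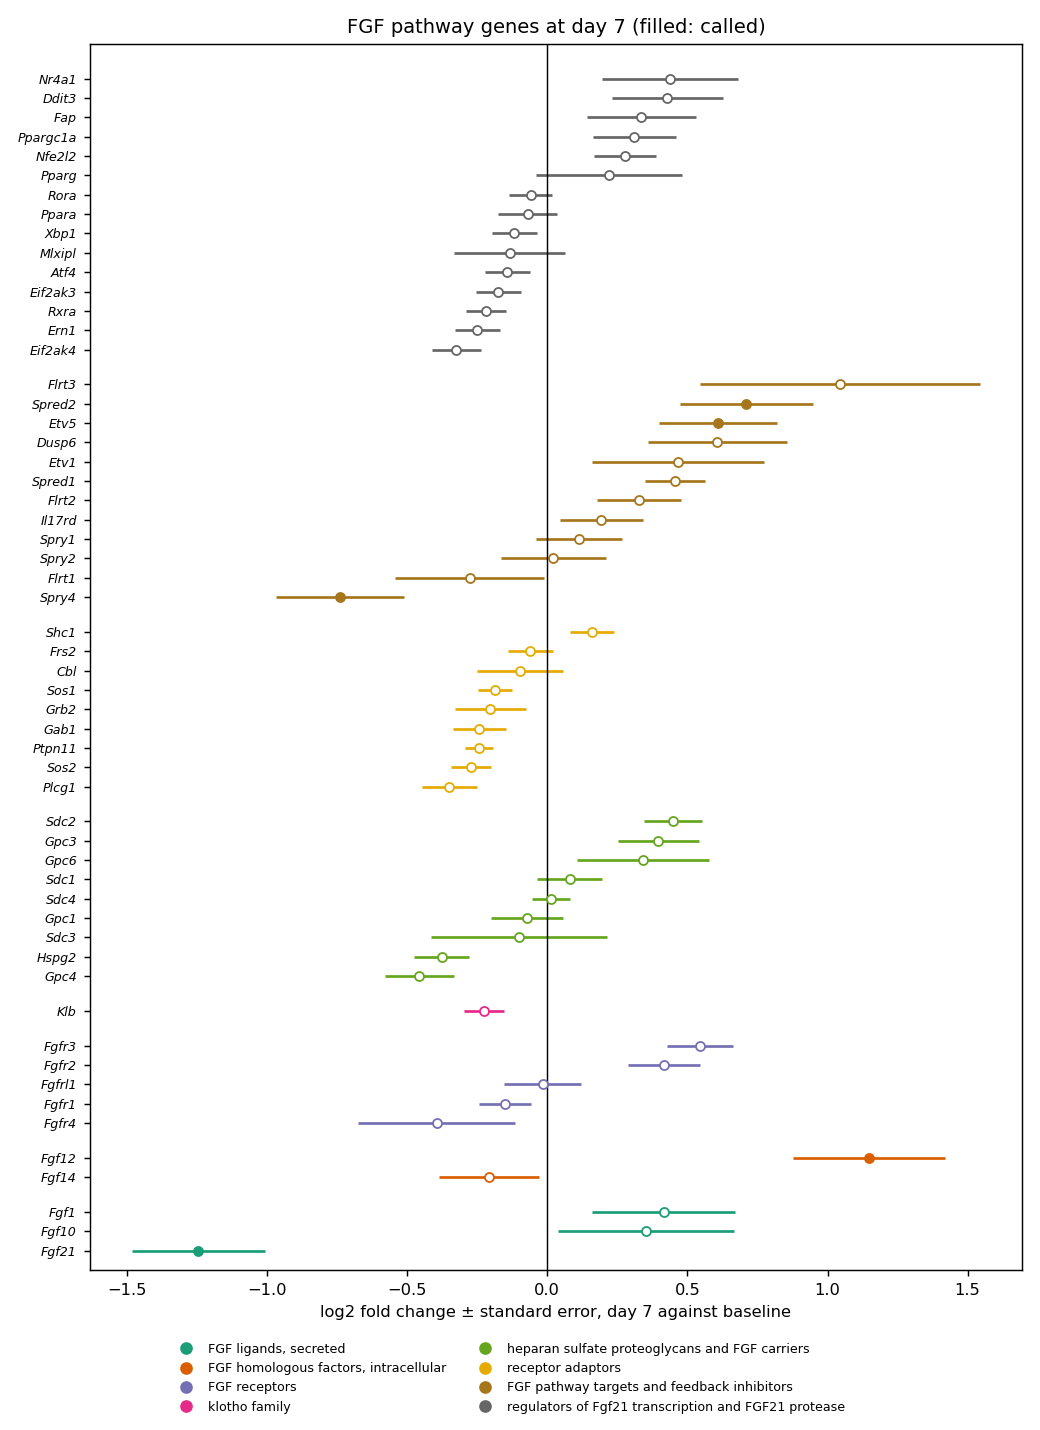
Each row is 1 tested gene of the 8 lists, coloured by list, with its log2 fold change at day 7 against baseline and its standard error on the horizontal axis, and filled points are DEGs. *Fgf21* (-1.24) has the lowest value and *Fgf12* (1.15) the highest, and the 15 regulators lie around 0 with no filled point.

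The genes whose pattern over the 23 mice was closest to that of *Fgf21* were found by the root mean square difference of log2 CPM after each gene was centred on its own mean. The *Fgf21* values themselves deviated from their mean by 0.73 in this measure. The closest were *Slc38a5* (0.44), *Pck2* (0.46), *Pnlip* (0.47), *Tmem220* (0.48) and *Cpa1* (0.48), so that a large part of its deviation was left for each. *Slc38a5* encodes an amino acid transporter and had medians of 193, 123 and 148 CPM at baseline, day 7 and day 14. *Pck2*, a mitochondrial enzyme of gluconeogenesis, had medians of 105, 58.2 and 92.0. For *Klb*, whose own deviation was 0.16, the closest were *Cd63* (0.081), *Eif5b* (0.081), *Srp68* (0.082), *Hdlbp* (0.087) and *Ormdl3* (0.087), with day 7 log2 fold changes between -0.27 and -0.13. These lists describe likeness in the same libraries and carry no test.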

How the data were processed

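The deposited files hold counts of read fragments per gene symbol for 23 mice. The authors depleted total RNA of ribosomal RNA, sequenced paired reads, trimmed them, aligned them to mm10 with STAR 2.5.2a and counted uniquely mapped fragments with featureCounts; the annotation and strand setting of the count are not given in the sources used here. Counts were scaled by TMM and tested with edgeR 4.0.16 (R 4.3.3, glmQLFit with robust = TRUE, glmQLFTest) on the 12195 genes kept by filterByExpr, with all mice in a single fit adjusted for sex; the interaction used 6 groups of sex and time point and 12933 genes. P-values are two-sided and adjusted by Benjamini-Hochberg over all genes tested. Standard errors restate the test (log2 fold change over the square root of F). CPM are counts per 1000000 of the TMM-scaled library. A floor of 3 counts covers counting error only. Each mouse is 1 animal, and no libraries were duplicates. In the paper's mapping statistics, every day 7 library had a lower rate of duplicate reads than any baseline library. Every day 14 library had a lower share of reads in 5′ untranslated exons than all libraries of the other groups. Such differences between libraries cannot be told apart from time. The paper left out a further day 14 female because of poor mapping. The text names the 6 genes, list genes called at day 7 or day 14, up to 3 genes per list with most counts, and the 5 genes most like *Fgf21* and *Klb*; *Ppara*, *Fgf14*, *Fgfrl1* and *Spred1* are list genes named beside them, as are list genes said to be named after their values were seen. The genes and lists were chosen with earlier results of these data known. The alternatives were DESeq2 1.42.0, other scalings, filters and covariates, and leaving out mice. Leaving out the 2 mice with hepatocyte transcripts or the 5 richest in adipocyte transcripts was added after the data had been seen. The fitting code was tested on simulated data.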

Additional observations from a re-analysis of the deposited data

Results flagged for a closer look

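*Fgf21* in day 14 male 24, at 25.95 CPM, stood apart from the other 6 day 14 mice, which reached at most 17.2 CPM. The gap to the next mouse was 0.573 of the range of the group, above Dixon's 95% critical value of 0.568. It was the only value of its kind among 18 groups of the 6 genes examined (3 time points each), and chance gives about 1 in 20 groups. Without this mouse the day 14 log2 fold change of *Fgf21* against baseline was -0.82 (adjusted p = 0.121, edgeR), against -0.68 with it.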

How the results depend on the processing

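No paired analysis was possible because the mouse numbers differ between the groups. At day 7, 1 of the 6 genes was a DEG. The number was 3 with total counts, 2 without the 20 most abundant genes in the total, 2 without the 5 mice richest in adipocyte transcripts and 4 without the fold threshold. *Fgf21* was a DEG at day 7 under all 10 alternatives fitted for it and all 23 omissions of 1 mouse, with adjusted p-values of 1.3e-06 to 0.0115 over the former. Over omissions of 1 mouse the number of the 6 genes called at day 7 was 1 to 2 (2 without day 7 female 10 or male 15), and it was 0 in the other comparisons.

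With total counts the log2 fold change reversed for *Klb* (0.23), *Fgfr1* (0.30) and *Fgfr4* (0.038) at day 7, for *Klb* (0.12) at day 14, and for *Klb* (-0.11) and *Fgfr1* (-0.014) between day 14 and day 7. The median of all genes moved with them. None of these reversed under the other alternatives. The interaction of *Fgf21* at day 7 became 0.042 with total counts and 0.10 without the 5 mice rich in adipocyte transcripts, and ran from -0.51 to 0.22 over omissions of 1 mouse.

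Of all genes, 626 were DEGs at day 7, and 3727 were with total counts, 348 with at least 10 counts in every mouse and 2264 without the fold threshold. At day 14 there were 96, and 449 with total counts, 62 without the 2 mice with hepatocyte transcripts and 192 without the fold threshold. Between the days 46 became 477, 30 and 157 with total counts, the stricter filter and no fold threshold, and 22 to 57 over omissions of 1 mouse (22 without day 14 male 22, 23 without day 7 male 15 and 29 without day 14 male 24). By sex 28 became 16 with the stricter filter, 54 without the 5 mice and 70 without the fold threshold. The interaction at day 7 gave 1 gene in edgeR, 19 in DESeq2 and 0 to 7 over omissions of 1 mouse (7 without day 7 male 15). It gave 0 with no filter, with only the mice compared and without the 5 mice. The cause of these shifts was not tested. The 5 genes most like *Fgf21* and those most like *Klb* were shared by both prior counts. *Fgfr4* could not be fitted with at least 10 counts in every mouse, and its 2 to 16 counts per mouse limit what can be seen.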

Other observations

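Other secreted FGF ligands were present at low counts in this tissue. *Fgf2*, *Fgf7* and *Fgf9*, named after their values were seen, had at most 12, 14 and 12 counts in any mouse and were not tested, and *Fgf16*, *Fgf17* and *Fgf18* had at most 4, 2 and 5. Of the other klotho genes, *Kl* had at most 6 counts and *Lctl* at most 4, so that *Klb* was the only gene of its family with enough counts for a test.

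The liver is a known source of circulating FGF21. *Fgf21* in the 2 day 14 mice with hepatocyte transcripts, female 19 and male 21, was 10.7 and 13.9 CPM, at or under the day 14 median of 13.9, and without both mice its day 14 log2 fold change was -0.60 (adjusted p = 0.437, edgeR).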
